A study of Mus musculus with 4 samples.

Results

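The miR-183 cluster consists of the microRNAs (miRNAs) miR-183, miR-96 and miR-182. Its loci, mmu-mir-183, mmu-mir-96 and mmu-mir-182, were taken by name from small RNA sequencing lists of mouse whole blood. In all, 374 annotated miRNA loci were listed in at least 1 library, and 3 of them belonged to the cluster. miR-183 and miR-182 were listed in all 4 libraries and were among the 276 loci tested, whereas miR-96 was listed in 1 library only. The cadmium group held 2 libraries from Balb/c mice, an inbred laboratory strain, that had cadmium in their drinking water, and the control group held 2 libraries from Balb/c mice without it. All mice were 180 days old and had free access to feed and water. The sources used here state neither the dose nor how long it was given. Nothing in the labels ties a library to its own animal, and p-values therefore cover the spread among 4 libraries, part or all of which can be technical.

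The 3 miRNAs of this cluster are cut from a shared primary transcript and are best known from sensory organs, where they mark photoreceptors and the hair cells of the inner ear. Changes in the seed of miR-96 cause hearing loss in mice and people. In mouse helper T cells, miR-182 is induced by interleukin 2 signalling and represses the transcription factor Foxo1, which ties the cluster to cells that circulate in blood.

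The sequences are shown first because the members resemble each other and the counted windows lie within them. The mature forms below come from RefSeq (GRCm38.p6, the assembly of the mm10 coordinates in the lists), with the seed, bases 2 to 8, in capitals.
miR-183-5p: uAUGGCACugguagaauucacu
miR-182-5p: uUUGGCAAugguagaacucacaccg
miR-96-5p: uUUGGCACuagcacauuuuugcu
Aligned from the first base without gaps, miR-183 and miR-182 were identical at 18 of 22 bases, miR-182 and miR-96 at 12 of 23, and miR-183 and miR-96 at 13 of 22. No pair had the same 7-base seed, but miR-182 and miR-96 were identical over bases 2 to 7. In RefSeq, miR-1271-5p also had the seed of miR-96, and its locus is not analysed here. No other mature mouse miRNA in RefSeq had the seed of miR-183 or of miR-182, and no other annotated locus was listed with the sequence of miR-183, miR-182 or miR-96.

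The cluster lies on the minus strand of chromosome 6 and spans 3820 bases. The hairpin of Mir183 is at chr6:30169668-30169737, that of Mir96 at chr6:30169446-30169551 and that of Mir182 at chr6:30165918-30165992. Only 116 bases separated the Mir183 and Mir96 hairpins, whereas 3453 separated those of Mir96 and Mir182. In the GENCODE M21 annotation no other gene overlapped this span, so the hairpins were intergenic there. The transcription factor gene Nrf1 ended 12459 bases to one side and the ubiquitin-conjugating enzyme gene Ube2h, on the minus strand, ended 41551 bases to the other. The long noncoding RNA gene Rncr4, described in mouse retina, began 3155 bases upstream of Mir183 on the opposite strand.

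All listed reads of the members came from the 5p arm, and none of the 3 loci was listed at its 3p arm. In all 4 libraries the miR-182 window was chr6:30165965-30165986, 22 bases that start at the first base of the 25-base RefSeq form and end before its last bases. The miR-183 window was not the same throughout. It was 23 bases (chr6:30169710-30169732) in both cadmium libraries and in control 2, and 21 bases (chr6:30169712-30169732) in control 1. All windows had the same 5′ end, and so the same seed, and differed at the 3′ end. The listed sequences, with the seed in capitals, were as follows.
miR-183 in cadmium 1 and cadmium 2: tATGGCACtggtagaattcactg
miR-183 in control 1: tATGGCACtggtagaattcac
miR-182 in cadmium 1, cadmium 2 and control 1: tTTGGCAAtggtagaactcaca
The sequence column of control 2 was out of step with its rows, so the sequence there was not read. Among the 276 tested loci, 41 had windows with shifted ends, and for 7 of these control 1 alone differed, against 6 for cadmium 1, 7 for cadmium 2 and 7 for control 2. How far the shorter window in control 1 moved its miR-183 count was not tested, and results are given below without that library.

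**Figure D1:**
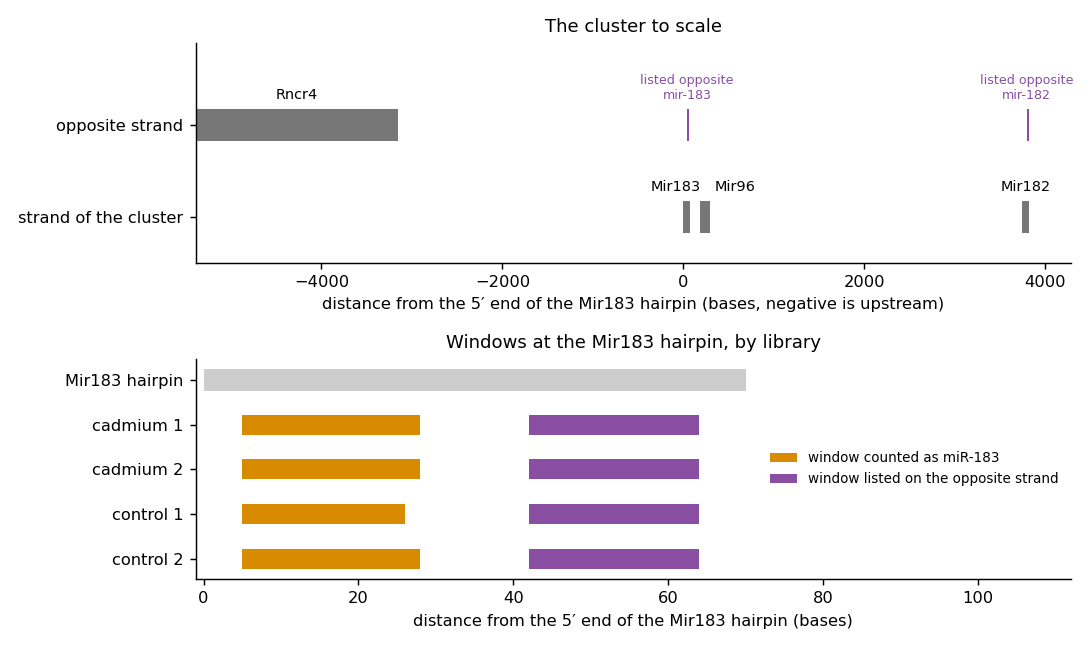
The upper panel draws the cluster to scale against distance from the 5′ end of the Mir183 hairpin in bases, with the strand of the cluster below and the opposite strand above. The locus opposite mir-182 was listed in control 1 alone. The lower panel shows the Mir183 hairpin with the window counted as miR-183 and the window listed on the opposite strand in each library. The miR-183 window is 21 bases in control 1 and 23 in the other 3 libraries.

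miR-183 had a higher level in both cadmium libraries than in either control but missed the threshold of the test, and miR-182 stood close to its control level. Counts of annotated loci summed to 14383852 and 15565712 in cadmium libraries 1 and 2, against 35244119 and 24622926 in controls 1 and 2, so equal read numbers mean a higher level with cadmium. miR-183 had 57 and 59 reads in cadmium libraries 1 and 2, against 58 and 46 in controls 1 and 2. In counts per 1000000 after TMM scaling (CPM), these were 3.52 and 3.47 in cadmium libraries, against 1.85 and 2.05 in controls. Both cadmium values were above both controls. The means were 3.50 ± 0.0367 CPM with cadmium and 1.95 ± 0.145 CPM in controls (SD, n = 2 each), a 1.80-fold difference. Whole blood mixes cell types, and fewer cells of a type and less RNA per cell cannot be told apart in it.

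The log2 fold change of miR-183 was 0.85 ± 0.24 (SE). Its edgeR p was 0.00788 and 0.0531 after Benjamini-Hochberg adjustment over all 276 loci, so miR-183 did not pass the threshold of 0.05. Of the 276 loci, 40 passed (14.5%), 22 higher (7.97%) and 18 lower (6.52%) with cadmium, and 79 had an unadjusted p under 0.05 (28.6%). Both cadmium libraries lay above both controls at 109 loci (39.5%), and the groups were separate in either direction at 193 (69.9%), so a separation like that of miR-183 was common among the loci tested. Exact 95% Poisson intervals, which cover counting error only, ran from 2.67 to 4.57 CPM in cadmium 1 and from 2.64 to 4.48 CPM in cadmium 2, against 1.40 to 2.39 CPM in control 1 and 1.50 to 2.74 CPM in control 2. The cadmium intervals and that of control 2 overlapped, and that of control 1 lay below them.

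The call of miR-183 turned on how the libraries were scaled. The edgeR adjusted p was 0.0732 with DESeq2 size factors. With totals that leave out loci holding over 10% of the counts, miR-183 had 0.97 (edgeR adjusted p = 0.0301). Upper quartile scaling gave 1.09 (edgeR adjusted p = 0.0225), and library totals gave 1.15 (edgeR adjusted p = 0.0147). These scalings moved all loci together: the median log2 fold change of the tested loci was 0.08 with TMM, -0.01 with DESeq2 size factors, 0.21 without dominant loci, 0.32 under upper quartile scaling and 0.38 under library totals. Relative to that median, miR-183 stood at 0.77, 0.77, 0.77, 0.76 and 0.77 in the same order. The split of calls moved with the scaling as well. Against 22 higher and 18 lower loci under TMM, there were 21 higher and 27 lower under DESeq2 size factors. Leaving out dominant loci gave 38 higher and 14 lower, upper quartile scaling 48 and 9, and library totals 57 and 8. With single libraries left out, miR-183 stood at 0.77 without control 1, the library with the shorter window, and at 0.92 without control 2. It stood at 0.84 without cadmium 1 and at 0.86 without cadmium 2. Such a fit leaves 1 library in a group, so no call of miR-183 is given for it.

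miR-182, the most abundant member, had 347 and 371 reads in cadmium libraries 1 and 2, against 604 and 458 in controls 1 and 2. After TMM scaling these were 21.5 and 21.8 CPM in cadmium libraries, against 19.2 and 20.4 CPM in controls. The groups did not overlap, but their nearest values lay closer together than the controls did. The means were 21.6 ± 0.268 CPM with cadmium and 19.8 ± 0.846 CPM in controls (SD, n = 2 each). The log2 fold change of 0.13 ± 0.21 (SE) did not pass the threshold (edgeR adjusted p = 0.704). It ranged from 0.04 to 0.42 over the alternatives tried, with edgeR, DESeq2 or limma voom adjusted p-values from 0.189 to 0.944. Relative to the median of all loci, miR-182 stood at 0.05 with TMM and at 0.05 with DESeq2 size factors, 0.05 without dominant loci, 0.04 under upper quartile scaling and 0.05 under library totals.

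miR-96, the third member, was listed in cadmium 2 alone, with 7 reads at chr6:30169507-30169528 on the minus strand, or 0.412 CPM (exact 95% Poisson interval from 0.166 to 0.849 CPM, counting error only). The lowest count in any list was 5, so an unlisted locus may still have had reads, and no fold was computed for miR-96. In that library miR-183 had 59 reads and miR-182 had 371.

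**Figure D2:**
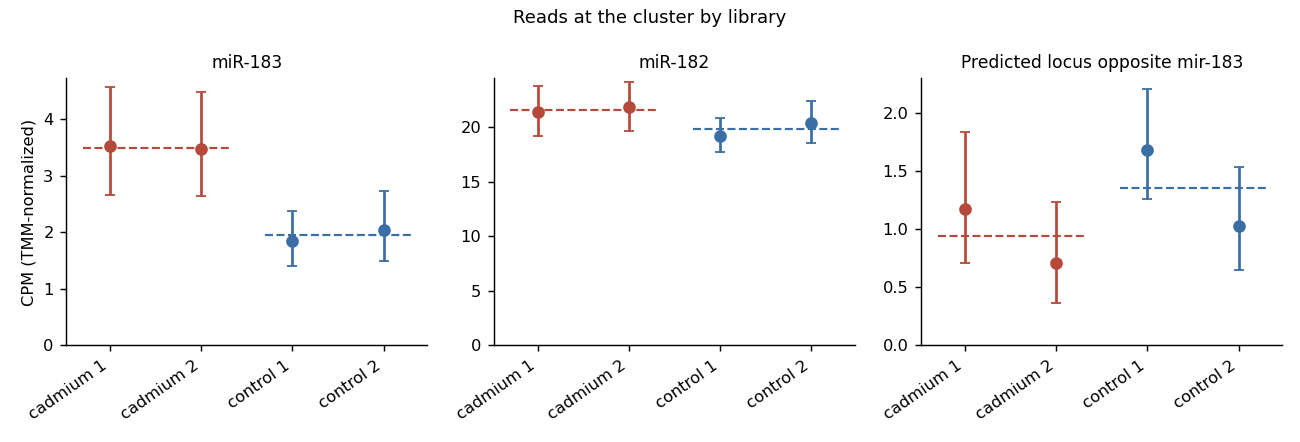
CPM after TMM scaling by library for miR-183, miR-182 and the predicted locus on the strand opposite mir-183; points are libraries with exact 95% Poisson intervals and dashed lines are group means. Both cadmium values of miR-183, 3.52 and 3.47 CPM, lie above the controls at 1.85 and 2.05 CPM, while miR-182 lies between 19.2 and 21.8 CPM in all 4 libraries.

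miR-183 made up a larger part of the reads of both members in each cadmium library than in either control. For each read of miR-183 there were 6.09 and 6.29 reads of miR-182 in cadmium libraries 1 and 2, against 10.4 and 9.96 in controls 1 and 2. This ratio within a library needs no scaling, and the windows of both miRNAs had nearly the same length. miR-183 held 14.1% and 13.7% of the reads of both in cadmium libraries 1 and 2, against 8.76% and 9.13% in controls 1 and 2. The groups did not overlap, and the means, 13.9% ± 0.274 with cadmium and 8.94% ± 0.259 in controls (SD, n = 2 each), differed by 4.97 percentage points. Single loci were separate at 69.9% of those tested, and how often pairs of loci separate the groups was not counted. The ratio rests on the same reads as the log2 fold changes of miR-183 (0.85) and miR-182 (0.13) and is not a further result beside them.

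On the log2 scale the ratio of miR-183 to miR-182 was -2.63 ± 0.03 with cadmium and -3.35 ± 0.05 in controls (SD, n = 2 each), a difference of 0.72. The exact two-sided permutation test gave p = 0.333, the smallest that 2 libraries against 2 allow, so this design cannot reach 0.05. Leaving out each library in turn gave differences of 0.69 to 0.75, the lowest without control 1. The exact 95% binomial intervals of the share, which cover counting error only, were 10.9% to 17.9% in cadmium 1 and 10.6% to 17.3% in cadmium 2, against 6.72% to 11.2% in control 1 and 6.76% to 12.0% in control 2. Those of single libraries thus overlapped slightly. With reads summed within groups, the share was 116 of 834 reads, or 13.9%, with cadmium, and 104 of 1166 reads, or 8.92%, in controls. Summed reads do not measure the spread between libraries, so they do not settle that overlap. The reads of both members together came to 25.1 ± 0.232 CPM with cadmium and 21.8 ± 0.991 CPM in controls (SD, n = 2 each).

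Reads were listed on the other strand of the Mir183 hairpin as well. A predicted locus at chr6:30169674-30169695 on the plus strand was listed in all 4 libraries. It is shown with its hairpin because it is the reverse complement of 22 bases there, 20 of them in the 3p arm. The hairpin below is the RefSeq sequence of the minus strand, with the 5p and 3p arms in capitals, and in the listed sequence bases 2 to 8 are in capitals.
Mir183 hairpin: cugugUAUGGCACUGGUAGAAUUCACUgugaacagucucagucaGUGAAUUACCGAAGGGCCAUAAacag
opposite strand of mir-183: aTGGCCCTtcggtaattcactg
Because the arms of a hairpin pair with each other, this sequence is also close to miR-183 itself. Set against the 23-base listed form of miR-183 from its second base, it was identical at 16 of 22 bases and differed at 6, and its bases 2 to 8 were not the miR-183 seed.

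The opposite-strand locus had 19 and 12 reads in cadmium libraries 1 and 2, against 53 and 23 in controls 1 and 2. These were 1.17 and 0.706 CPM in cadmium libraries, against 1.69 and 1.03 CPM in controls, so the groups overlapped. An edgeR fit that also took in the 140 predicted loci listed at the same position in every library called 70 of 414 loci (16.9%). In it the log2 fold change of the opposite-strand locus was -0.54 ± 0.44 (SE, edgeR adjusted p = 0.418). Without control 1 it was -0.07, and without control 2 it was -0.87. Leaving out cadmium 1 gave -0.96, and leaving out cadmium 2 gave -0.24. Such a fit leaves 1 library in a group, so no call of this locus is given for it. The median of the predicted loci in that fit was -0.28, so a lower value was the rule among them.

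Of the reads at the Mir183 hairpin on both strands, miR-183 held 75.0% and 83.1% in cadmium libraries 1 and 2, against 52.3% and 66.7% in controls 1 and 2. The groups did not overlap, but the nearest values of the groups lay closer together than the controls did. The means were 79.0% ± 5.73 with cadmium and 59.5% ± 10.2 in controls (SD, n = 2 each; exact two-sided permutation p = 0.333, the smallest possible). The intervals from counting alone were 63.7% to 84.2% in cadmium 1 and 72.3% to 91.0% in cadmium 2, against 42.6% to 61.8% in control 1 and 54.3% to 77.6% in control 2. The difference of 19.6 percentage points was 12.4 without control 1 and 26.8 without control 2.

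The Mir182 hairpin also had a predicted locus on its other strand, but in control 1 only, with 21 reads at chr6:30165924-30165945 on the plus strand. It lay over 20 bases of the 3p arm, and its bases 2 to 8, in capitals below, were the same letters as the miR-182 seed.
opposite strand of mir-182: gTTGGCAAgtctagaaccaccg
Control 1 was the deepest library, and the other lists do not show whether they had reads there below the lowest listed count. Predicted loci on the other strand were listed at 13 RefSeq hairpins in at least 1 library, and only Mir183 and Mir130a had one in all 4. Within 10000 bases of the cluster no annotated or predicted locus was listed other than those described.

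**Figure D3:**
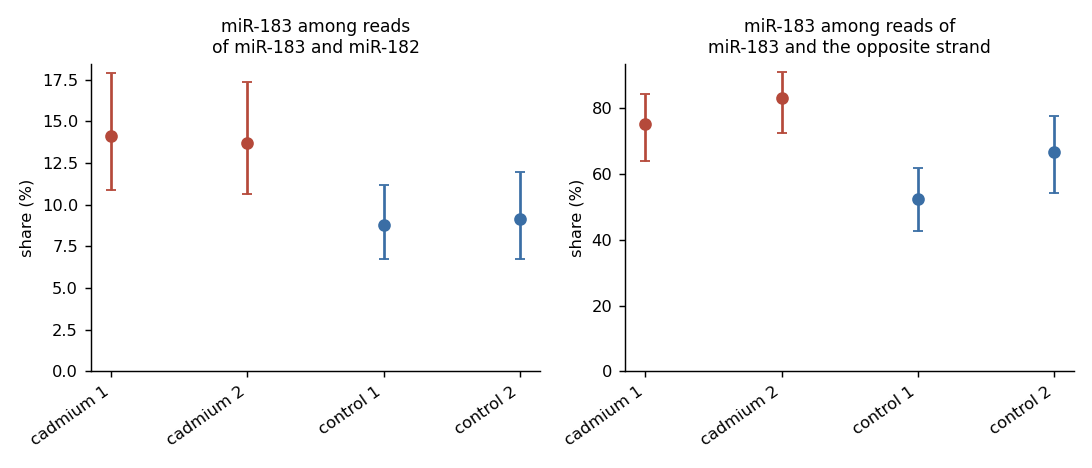
Share of miR-183, in percent, among reads of miR-183 and miR-182 (left) and among reads of miR-183 and the opposite-strand locus (right), by library, with exact 95% binomial intervals. Cadmium libraries lie at 14.1% and 13.7% on the left and controls at 8.76% and 9.13%; on the right cadmium libraries lie at 75.0% and 83.1% and controls at 52.3% and 66.7%.

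Both members were of moderate to low abundance in this blood. By mean CPM of the 4 libraries, miR-182 ranked 108 and miR-183 ranked 207 of 276 loci. The neighbours of miR-182 in that order were miR-542 at 22.1 CPM and miR-5113 at 20.5 CPM, beside 20.7 CPM for miR-182 itself. The neighbours of miR-183, at 2.72 CPM, were miR-1191 at 2.92 CPM and the loci of miR-9 at 2.70 CPM. Within both sets the means of neighbours lay closer together than the values of single libraries. miR-1191 was higher with cadmium by 1.08 ± 0.26 on the log2 scale (SE, edgeR adjusted p = 0.0323), so a locus at the abundance of miR-183 could pass.

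The loci whose centred log2 CPM over the 4 libraries lay nearest to that of miR-183, among 128 loci of at least 10 CPM, were miR-103-1 and miR-103-2, whose counts were nearly identical, at a Euclidean distance of 0.23, and miR-15b at 0.26. miR-103-1 had 6016 and 6060 CPM in cadmium libraries 1 and 2, against 3529 and 4263 CPM in controls 1 and 2. It and miR-15b were higher with cadmium by 0.63 ± 0.13 and 1.09 ± 0.13 on the log2 scale (SE, edgeR adjusted p = 0.0133 and 0.00207). The loci nearest to miR-182 were miR-363 (distance 0.04), let-7g (0.09) and miR-330 (0.10), with log2 fold changes of 0.14 ± 0.22, 0.14 ± 0.11 and 0.23 ± 0.21 (SE). None of the 3 passed the threshold with TMM, and let-7g did with library totals (0.44, edgeR adjusted p = 0.0333). With 4 points per profile, these distances only describe the libraries. A locus picked for nearness to miR-183 in these libraries tends to share its direction. The p-values of miR-103-1 and miR-15b are therefore no support for miR-183.

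**Figure D4:**
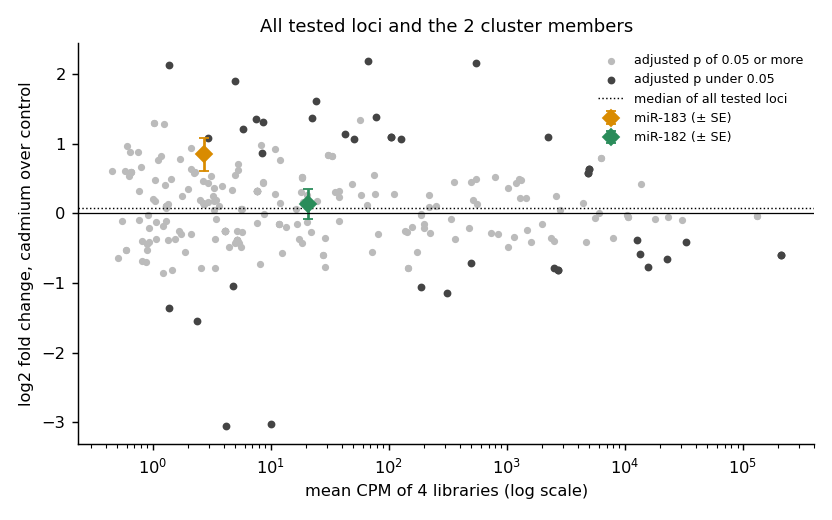
Log2 fold change, cadmium over control, against mean CPM on a log scale for the 276 tested loci; dark points passed an edgeR adjusted p of 0.05, and diamonds with SE bars mark the members. miR-183 lies at 0.85 among loci of low abundance, and miR-182 lies at 0.13, near the dotted median of 0.08.

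A list of miRNAs reported to act on Foxo1, which includes miR-96 of the cluster itself, was set beside the cluster. Counts of loci past the threshold in this list and those that follow are to be read beside the 7.97% of all tested loci that were higher and the 6.52% that were lower. Of 10 such loci, 3 were tested under the names used in this list. Of these 3, 0 passed higher and 1 lower by edgeR, with a median log2 fold change of 0.09, beside 0.08 for all loci. In the library lists miR-145 carries the name mir-145a, so its locus is missing from these 3 and from the median. That locus was tested, had 0.97 ± 0.30 (SE, edgeR adjusted p = 0.0703) and did not pass. miR-27b fell to 1834 CPM with cadmium, against 3153 CPM in controls (-0.78 ± 0.14, SE, edgeR adjusted p = 0.00938), and miR-27a had 0.09 ± 0.20. Of 12 loci of miRNAs prominent in sensory organs, 7 were tested, of which 0 passed higher and 2 lower, with a median of -0.11. The 2 were miR-181a-1 and miR-181a-2, which carry the same reads, are also lymphocyte miRNAs and fell by 0.81 ± 0.16 on the log2 scale (edgeR adjusted p = 0.0133, and 0.0552 with library totals). The 3 miR-9 loci, of a miRNA of neural tissue, had 0.13 ± 0.29.

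Levels of miRNAs in lists named for the cell types of blood, or of tissue caught in a blood draw, are given beside those of the cluster. The sums are levels of the listed miRNAs and were not tested as measures of cell numbers. Summed over distinct listed sequences, the red cell list (7 of 8 loci tested, 2 lower, 0 higher) held 353662 and 366085 CPM in cadmium libraries, against 469569 and 445580 CPM in controls. In that list miR-486, a miRNA of red cells, had 167228 ± 8297 CPM with cadmium and 253127 ± 11340 CPM in controls (SD, n = 2 each), while miR-16-2 stood at -0.04 ± 0.07 on the log2 scale. The 2 lower loci were miR-486 (-0.60 ± 0.07, SE, edgeR adjusted p = 0.00204) and miR-144 (-0.58 ± 0.15, edgeR adjusted p = 0.0359), the second chosen after its values were seen, and the list median was -0.08. With the upper quartile both lost their call (edgeR adjusted p = 0.137 and 0.206), and miR-144 also lost it with library totals (0.168) and without dominant loci (0.0786). With library totals miR-486 kept its call at -0.30. The lymphocyte list (7 of 7 tested, 2 lower, 0 higher) held 8131 and 7286 CPM in cadmium libraries, against 10368 and 8815 CPM in controls, and its median log2 fold change was -0.78. Its most abundant member, miR-142, stood at -0.07 ± 0.12, and the 2 lower loci were those of miR-181a; the other 4 stood between -0.78 and -0.49 and did not pass. The myeloid list (4 of 5 tested, 0 lower, 2 higher) held 424 and 474 CPM in cadmium libraries, against 334 and 286 CPM in controls. Its 2 higher loci, miR-24-1 and miR-24-2, carry the same reads and rose by 1.10 ± 0.20 (SE), which was also the list median, and miR-27a, more abundant, had 0.09 ± 0.20.

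The platelet and endothelium list (3 of 4 tested, 0 lower, 0 higher) held 212 and 191 CPM in cadmium libraries, against 256 and 191 CPM in controls. Its members miR-126a and miR-199a-1 both stood at -0.15, the list median. The epithelium list (6 of 7 tested, 1 lower, 0 higher) held 229 and 207 CPM in cadmium libraries, against 205 and 298 CPM in controls. The 1 lower locus was miR-205, an epithelial miRNA singled out after its values were seen, at 0.742 and 1.06 CPM in cadmium libraries, against 8.66 and 6.33 CPM in controls (-3.05 ± 0.31, SE, edgeR adjusted p = 0.00204). In the same list miR-141 and miR-200c, the most abundant of the list, had -0.22 ± 0.23 and 0.18 ± 0.38, and the list median was -0.02. After TMM scaling, the groups did not overlap in the summed levels of the red cell, lymphocyte and myeloid lists, beside a separation at 69.9% of all single loci. The TMM factors were 1.13 and 1.09 in cadmium libraries 1 and 2, against 0.892 and 0.912 in controls 1 and 2. Without these factors the lymphocyte sums of the groups overlap. The part of these lists in the levels of miR-183 and miR-182 was not tested. The red cell marker miR-451 and the myeloid marker miR-223 are not analysed here.

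**Figure D5:**
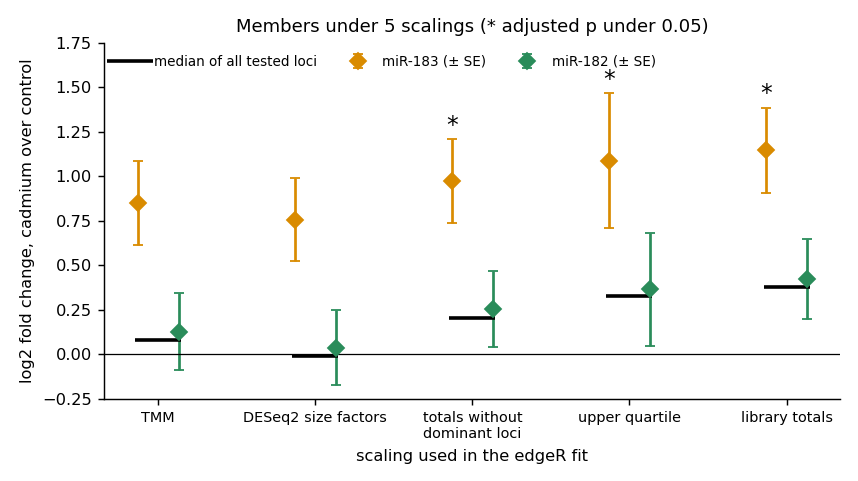
Log2 fold change, cadmium over control, of miR-183 and miR-182 with SE bars under 5 scalings of the libraries, with the median of all tested loci as a black bar; asterisks mark an edgeR adjusted p under 0.05. miR-183 moves between 0.76 and 1.15 and the median between -0.01 and 0.38, so that the distance from miR-183 to the median stays at 0.76 to 0.77.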

How the data were processed

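The deposited lists, 1 per library, give whole-number counts of mature reads per locus, which the authors did not normalize, per the file headers. Bowtie 0.12.2, DESeq and mm10 are named in the submitters' processing notes, without their roles. A nameless row in cadmium 1, its column total, was dropped, and star names that repeated a locus and count were merged. The test was edgeR 4.0.16 (R 4.3.3; quasi-likelihood F test, TMM, filterByExpr, Benjamini-Hochberg) with group as the only term, on the 277 annotated loci counted on 1 arm in all 4 libraries, of which 1 was filtered out. SE is the log2 fold change over the square root of F. The fit was tested on simulated data. Alternatives used DESeq2 1.42.0, limma 3.58.1 (voom), other scalings and filters, a replicate block and each library left out. Chi-square per degree of freedom was 60.6 for the cadmium pair and 1019 for the control pair, so neither is 1 library listed again.

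Members, lists, tests and the naming rule were chosen with earlier results of these data known. Loci named are the members, seed relatives, listed loci within 10000 bases, the 3 most like profiles and the level neighbours of each member, and the 2 most abundant of each list. Figures used matplotlib 3.10.9, and shares and intervals used SciPy 1.17.1 under Python 3.11.15 with pandas 2.3.3. Coordinates are 1-based.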

Additional observations from a re-analysis of the deposited data

Results flagged for a closer look

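miR-96 was outside the test, because it was listed in 1 library. It had 7 reads in cadmium 2 and was unlisted in cadmium 1, whose total was smaller, and in both controls, whose totals were larger. These 7 reads lie near the lowest listed count, 5, and no comparison used them. The difference was not tested, and an unlisted locus is not a measured 0.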

How the results depend on the processing

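miR-183 kept a positive log2 fold change in all 14 alternatives run on it, from 0.76 to 1.15. With all 4 libraries in the fit, it passed the threshold with library totals (1.15), the upper quartile (1.09) and totals without dominant loci (0.97). The scaling alternatives differ in the centre of all loci. Leaving out each library gave 0.77 to 0.92 for miR-183 and 0.08 to 0.17 for miR-182. Of its 16 alternatives, miR-182 passed in none of those with all 4 libraries in the fit. The DESeq2 Wald test gave miR-183 0.76 (DESeq2 adjusted p = 0.265). A mean CPM of at least 10, and identical windows only, removed miR-183 and gave it no value. The count of loci past the threshold, 40, was 65 with library totals, 70 with predicted loci included, an alternative chosen after seeing the data like that of identical windows, and 8 to 122 when each library was left out (105 without control 1, 122 without control 2, 8 without cadmium 1, 9 without cadmium 2). With the replicate number as a block it was 19, and miR-183 then had 0.85 (edgeR adjusted p = 0.0630). The libraries share only a number: differences between replicates 1 and 2 correlated at 0.0954 between the groups across loci. For the ratio of miR-183 to miR-182, the 5 alternatives left out a library or added 0.5 reads. Neither could turn its sign, because both cadmium ratios lay well above both controls. The opposite-strand locus kept a negative log2 fold change in its 9 alternatives. With 46 to 59 reads per library, counting error limits miR-183.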
